A study of Bos taurus with 2 samples.

Results

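Autophagy, the pathway by which a cell encloses part of its own cytoplasm in a membrane and delivers it to the lysosome, was followed through 36 genes in the *longissimus thoracis* (LT) muscle of bovine fetuses. The genes were listed by symbol for their roles in the pathway, with earlier results of these data known. No measured value enters the rule. Of the 36 genes, 14 act in initiation, 14 in the conjugation of the ATG8 proteins to lipid, and 3 encode cargo receptors. Another 4 act in mitophagy (the removal of mitochondria by autophagy), and 1, *TFEB*, is a transcription factor of the pathway. A probe was found for 35 of the 36 genes through the accession given with each probe, 93 probes in all of the 43652 on the arrays, and all 35 gave a fold. Over the whole array 19554 entries gave a fold, of which 10637 had a matched symbol and 8917 were known only by the identifier given with the probe. They are called all genes below, although some of the unnamed entries may be parts of the same gene. *ULK2*, a kinase that starts autophagy, had no matched probe.

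The study compared Japanese Black cows fed 120% of the nutritional requirement in gestation (the high-nutrition or HN group, 6 cows) with cows fed 60% (the low-nutrition or LN group, 5 cows). All were inseminated with sorted semen of the same sire, so that the fetuses were male, and the fetuses were taken at 8.5 months, on day 260 ± 8.3 of gestation. RNA of 4 fetuses was pooled for each diet, those with the highest body weight in the HN group and those with the lowest in the LN group, and each pool was read on 1 one-color Agilent array of the same slide. Diet and the choice of fetuses by weight therefore cannot be told apart, no group was fed 100% of the requirement, and with 1 array per group no difference below has a replicate check, a test or a p-value.

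Autophagy begins when the ULK kinase complex and a class III PI3-kinase complex mark a membrane site with the lipid PI3P, and the lipid is read by WIPI proteins. A ubiquitin-like conjugation system then attaches ATG8 proteins (the LC3 and GABARAP families) to phosphatidylethanolamine in the growing membrane, where they hold cargo receptors, and the closed autophagosome fuses with a lysosome. Skeletal muscle uses the pathway to renew its contractile apparatus and mitochondria, and autophagy in muscle responds to fasting through mTORC1, AMPK and FoxO transcription factors.

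All levels are log2 signals after quantile normalization, and each difference is log2 LN/HN, so that a negative value is a lower signal in the LN pool. The arrays read RNA and do not give protein, the conjugation of ATG8 proteins or the rate of autophagy. The log2 LN/HN of a gene averages its probes. The signals of different probes, and so of different genes, are not on a common scale. Of the 93 probes, 88 were well above background on both arrays, 2 on 1 array only and 3 on neither, and 89 gave a fold. Among 42 probes printed in several spots, the log2 LN/HN of the spots of a probe had an SD of 0.09, from which the 95% range of a single spot was computed as 0.17 on either side (1.12-fold), assuming a normal spread. The scanner software gave an error of 0.20 on the log2 ratio of a single member probe at the median. For most member probes it rests on an error near 10% of the signal on each array, the lowest given. It is thus not a spread measured between spots. The median SD over the probes of a gene was 0.12 for the 30 members with more than 1 probe that gave a fold and 0.11 for all genes. These errors describe the measurement of 2 pools and say nothing of the spread between fetuses, and they are read below against a threshold of 1.25-fold, or 0.32 on the log2 scale.

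Most of the autophagy genes were lower in the LN pool by small amounts. The values ran from -0.35 for *BNIP3* to 0.24 for *ULK1*, with a median of -0.07, against a median of -0.003 over all genes. At any size, 26 of 35 genes (74.3%) were below 0, against 50.7% of all genes, and 9 (25.7%) were above 0, against 49.3%. Over the 10637 entries with a symbol alone, 50.4% were below 0 and 8.01% were past 1.25-fold lower. These shares are a description, since the list was drawn up with earlier results of these data known. Of the 89 probes, 61 were lower and 28 were higher in the LN pool. Where at least 2 probes of a gene were measured on both arrays, as in 29 members, every probe was lower in 15 (51.7%), against 28.7% of all such genes, and every probe was higher in 4 (13.8%), against 29.9%.

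Few of these differences were large. Past 1.25-fold lower were 3 of 35 genes, *ATG4B*, *PINK1* and *BNIP3*, a share of 8.57% beside 9.11% of all genes. No member was past 1.25-fold higher, beside 8.85% of all genes. None was past 2-fold in either direction, beside 0.286% of all genes lower and 0.711% higher. Past the 95% range of a single spot, 7 genes (20%) were lower, beside 21.3% of all genes, and 5 (14.3%) were higher, beside 20.6%. Of these 5, *ATG14* averages a limit and is at most 0.18, so that 4 are measured as past the range. The shares past a threshold on the lower side were thus near those of the whole array, while the share of small negative values was above it. In RNA of whole muscle, fewer cells of a type and less RNA per cell cannot be told apart.

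**Figure D1:**
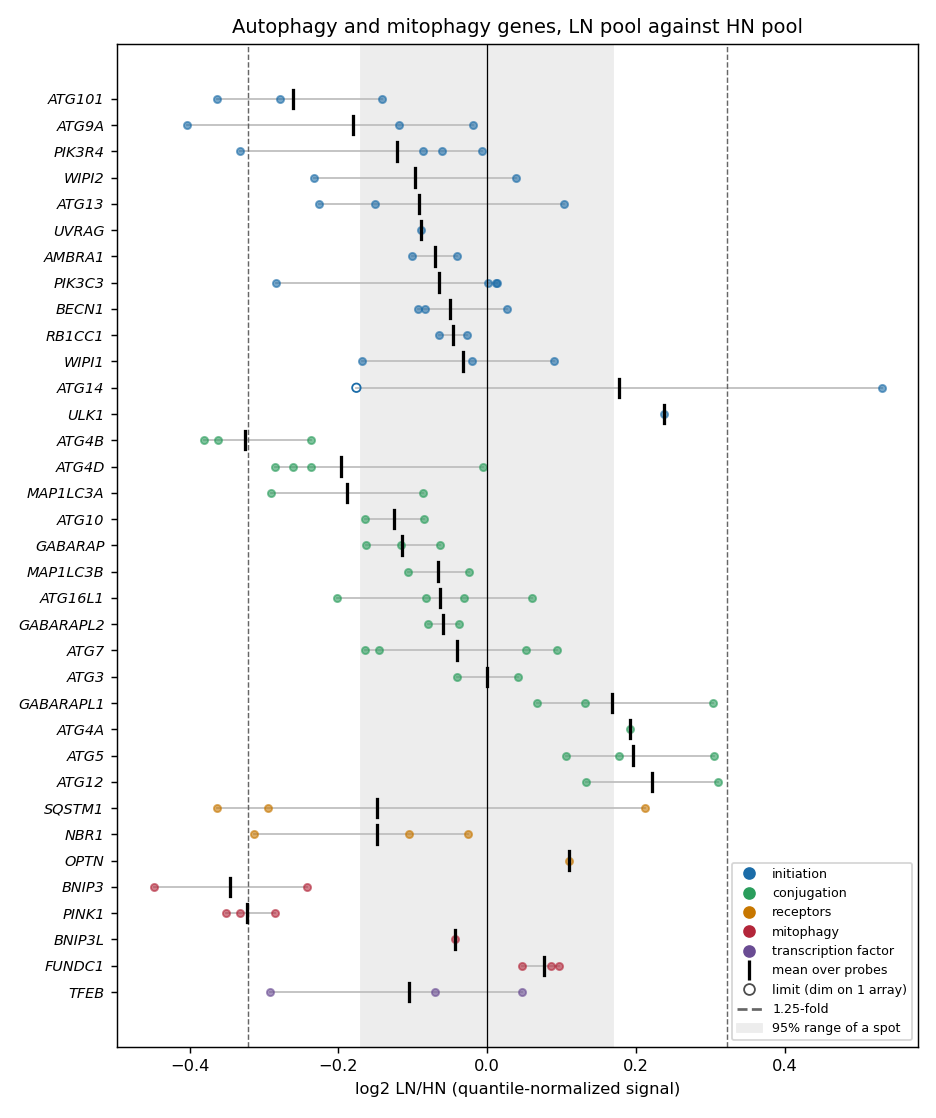
log2 LN/HN (x axis) of every probe with a fold (points, colored by step) and of every gene as the mean over its probes (black bars), ordered by value within each step. Dashed lines mark 1.25-fold and the grey band the 95% range of a single spot. 26 of the 35 bars lie below 0, and those of *ATG4B*, *PINK1* and *BNIP3* lie past the lower dashed line.

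**Figure D2:**
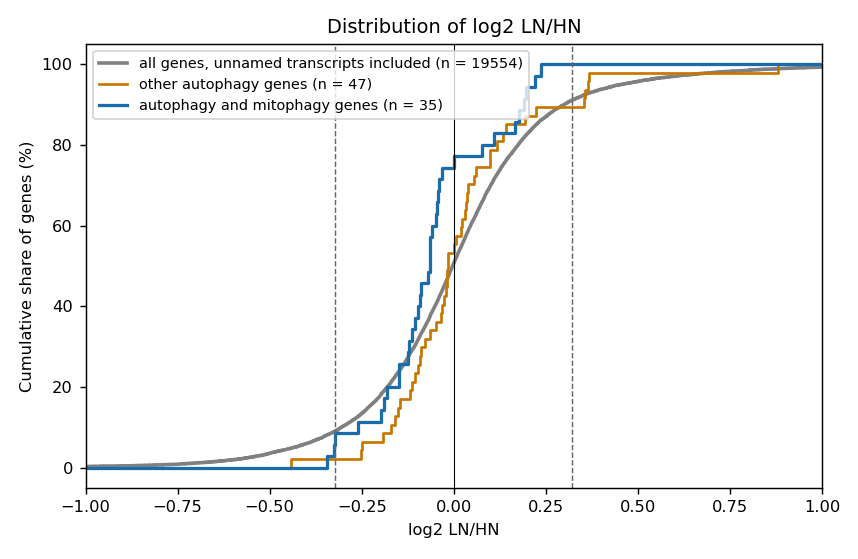
Cumulative share of genes (y axis, percent) with log2 LN/HN up to the value on the x axis for the 35 autophagy and mitophagy genes, the 47 other autophagy genes and all 19554 genes with a fold, the unnamed entries included. At 0 the curve of the 35 genes stands at 74.3% and that of all genes near 50.7%, while at the lower dashed line (1.25-fold) they stand at 8.57% and 9.11%.

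Among the mitophagy genes, the differences were those of *PINK1* and *BNIP3*. PINK1 is a kinase that accumulates on damaged mitochondria and phosphorylates ubiquitin there. Its 3 probes read 10.92, 9.27 and 7.60 on the HN array and 10.57, 8.94 and 7.32 on the LN array, so that all 3 were lower in the LN pool, by similar steps of -0.35, -0.33 and -0.29. The gene's value was -0.32 ± 0.03 (SD, n = 3 probes), a change of -20.1%. This is just past the threshold, and the gene fell short of it in 5 of 11 ways of processing the arrays, with values between -0.35 and -0.29 in all of them.

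*PINK1* was also the member for which the study designed a PCR. Its primers are shown, in lower case because no base is singled out. The PCR was run on the fetuses of both diet groups, from which the pooled fetuses had been chosen. Its one-sided test took its direction from the array, so it is not independent of the array, and its values are not used here.
PINK1 forward primer: gaaatcttcgggctccccaatc
PINK1 reverse primer: taaatgaagcacattagcagccac

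*BNIP3* encodes a receptor in the outer mitochondrial membrane that binds ATG8 proteins directly and is induced by hypoxia. Its probes read 11.64 and 10.81 on the HN array and 11.20 and 10.57 on the LN array, and both were lower in the LN pool, by -0.45 and -0.24. The value of -0.35, a change of -21.3%, was the lowest of all members, and it was past 1.25-fold in 10 of 11 ways of processing, the exception being no scaling between the arrays (-0.30). *BNIP3L*, its close relative and the receptor by which red cells lose their mitochondria, read 10.11 and 10.06 on its only probe, a difference of -0.04 that was 0.01 with no scaling between the arrays. *FUNDC1*, another outer membrane receptor, went the other way, with all 3 probes slightly higher (0.05, 0.10 and 0.09) and a value of 0.08 that lay within the range of a single spot. The median of the 4 genes was -0.18, which is midway between a lower pair and a pair near 0.

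**Figure D3:**
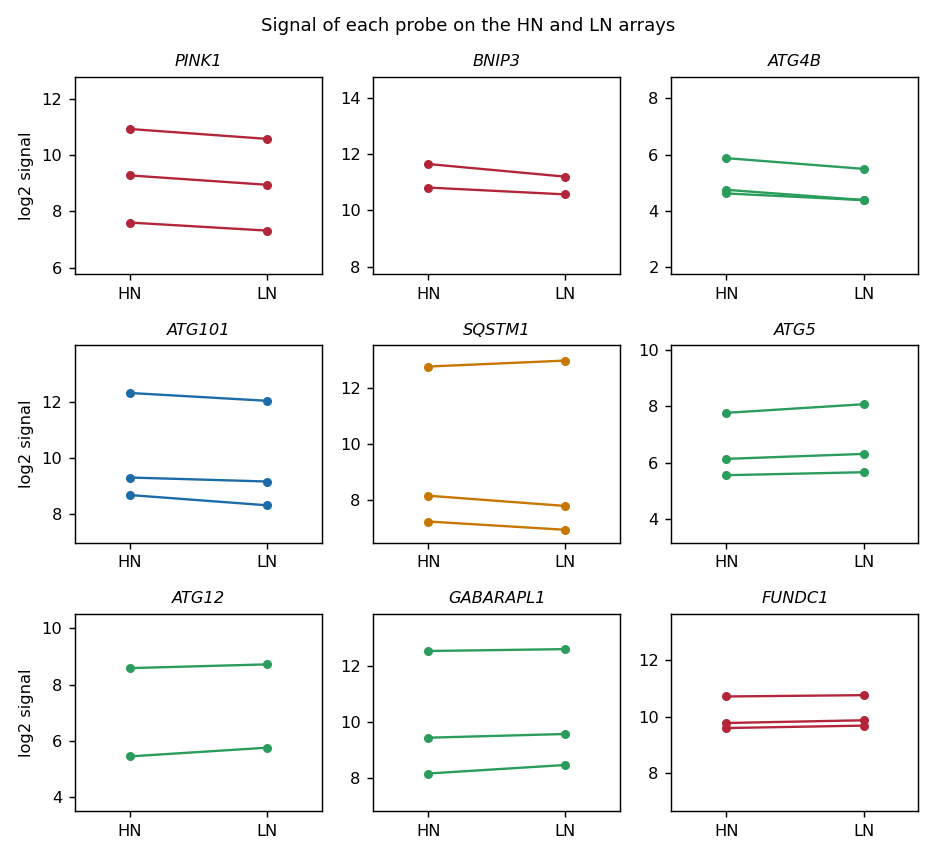
log2 signal (y axis, the same span of log2 units in each panel) of every probe with a fold on the HN and LN arrays for 9 genes, each line being 1 probe. The lines of *PINK1*, *BNIP3*, *ATG4B* and *ATG101* all descend from HN to LN, those of *ATG5*, *ATG12*, *GABARAPL1* and *FUNDC1* all climb, and *SQSTM1* has 1 line that climbs and 2 that descend.

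In the conjugation step the genes went both ways, 9 lower and 5 higher, with a median of -0.06. The ATG4 proteases trim ATG8 proteins before conjugation and later release them from the membrane, and their genes differed among themselves. *ATG4B* read 5.88, 4.75 and 4.63 in HN and 5.50, 4.39 and 4.39 in LN. All 3 of its probes were thus lower, by -0.38, -0.36 and -0.24, and the value was -0.33 ± 0.08 (SD, n = 3 probes). Its signals were dim, and the value was -0.07 with the normexp background correction and -0.28 with cyclic loess, both short of 1.25-fold. *ATG4D* was lower by -0.29, -0.24 and -0.26 on 3 probes and by -0.01 on the probe with the highest signal, with a mean of -0.20. *ATG4A*, on its only probe, was higher, from 8.73 in HN to 8.92 in LN, a difference of 0.19.

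The ATG12-ATG5-ATG16L1 complex directs the last transfer of ATG8 proteins to lipid. The genes of its 2 covalently joined parts were both higher in the LN pool. *ATG5* read 7.77, 6.14 and 5.56 in HN and 8.08, 6.32 and 5.67 in LN, with differences of 0.31, 0.18 and 0.11 and a value of 0.20 ± 0.10 (SD, n = 3 probes). *ATG12* read 8.58 and 5.45 in HN and 8.72 and 5.76 in LN, differences of 0.13 and 0.31 and a value of 0.22. Both genes were above 0 in all 11 ways of processing and short of 1.25-fold in each. *ATG16L1*, the scaffold of the complex, was at -0.06 over 4 probes that lay on both sides of 0 (-0.20 to 0.06), its other 2 probes being too dim for a fold.

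The genes of the enzymes that activate and carry the ubiquitin-like proteins were close to equal in the pools. *ATG7*, the activating (E1-like) enzyme of both conjugation routes, had a value of -0.04 with 2 probes lower and 2 higher (-0.16 to 0.09). *ATG3*, which carries ATG8 proteins, read 8.25 in both pools. *ATG10*, which carries ATG12, was at -0.12, from 8.63 to 8.50, with both probes lower. None of the 3 passed the range of a single spot.

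Of the genes of the ATG8 proteins themselves, 4 were lower and 1 was higher, and none reached 1.25-fold. *MAP1LC3A* had the lowest value, -0.19, but its 2 probes differed in size, from 9.42 to 9.12 on one (-0.29) and from 11.74 to 11.66 on the other (-0.09). *MAP1LC3B*, the LC3 form most used as a marker of autophagosomes, was at -0.07 (12.25 to 12.23 and 9.54 to 9.43). *GABARAP*, which gave its name to the second family, read 14.99, 14.94 and 14.37 in HN and 14.92, 14.78 and 14.25 in LN, a value of -0.11 ± 0.05 (SD, n = 3 probes). *GABARAPL2* was at -0.06 on 2 probes that were both lower (-0.08 and -0.04).

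*GABARAPL1*, a GABARAP relative that is transcribed under FoxO control in muscle, was the ATG8 gene that stood higher. It read 12.52, 9.45 and 8.17 in HN and 12.59, 9.58 and 8.48 in LN. All 3 probes were higher, by 0.07, 0.13 and 0.30, and the value was 0.17 ± 0.12 (SD, n = 3 probes). It was above 0 in all 11 ways of processing. It lay just within the range of a single spot, and past it with no scaling between the arrays (0.20).

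In initiation 11 of 13 genes were lower, beside 50.7% of all genes, with a median of -0.07 and no gene past 1.25-fold lower, beside 9.11%. Read from the probe of highest signal, *WIPI1* (0.09) and *WIPI2* (0.04) were above 0. In the ULK complex, *ATG101*, the small partner that stabilizes ATG13, was the lowest. It read 12.30, 9.30 and 8.68 in HN and 12.02, 9.16 and 8.32 in LN, with all 3 probes lower (-0.28, -0.14 and -0.36) and a value of -0.26 ± 0.11 (SD, n = 3 probes). *ATG13*, the adaptor of the complex, was at -0.09 with 2 probes lower and 1 higher (-0.23 to 0.10), and *RB1CC1*, which encodes the scaffold FIP200, was at -0.05. *ULK1*, the kinase, was at 0.24, from 3.56 to 3.80, the highest value of all members. That value came from 1 dim probe with a software error of 0.33 on its log2 ratio, and it was 0.08 with subtraction of the 75th percentile and 0.04 with the normexp correction.

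The genes of the class III PI3-kinase complexes differed little between the pools. *PIK3C3*, the lipid kinase VPS34, was at -0.06, the mean of 1 probe at -0.28 (9.16 to 8.88) and 3 probes between 0.00 and 0.01. *PIK3R4*, its regulatory subunit VPS15, was at -0.12 with all 4 probes lower, of which 1 (4.65 to 4.32) was at -0.33 and the rest between -0.09 and -0.01. *BECN1*, the subunit that many signals act on, was at -0.05 (9.13 to 9.04, 6.38 to 6.40 and 6.30 to 6.22), and *AMBRA1*, which regulates it, was at -0.07 with both probes lower.

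ATG14 and UVRAG are the partners that assign the kinase to autophagosome formation or to later trafficking, and their genes could hardly be measured. *ATG14* had 1 probe at 0.53 (3.07 to 3.60) and 1 at most -0.18, which was not well above background in the LN pool, so that its mean, at most 0.18, turned to -0.02 with subtraction of the 75th percentile and was 0.53 over the probe measured on both arrays. *UVRAG* had 1 measurable probe (3.45 to 3.36, -0.09), and its value turned to 0.22 with no filter on dim probes and to 0.02 with the normexp correction.

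The genes that supply membrane and read PI3P were all below 0. *ATG9A*, the transmembrane lipid scramblase of the vesicles that seed the autophagosome, was at -0.18, the mean of probes at -0.12 (11.69 to 11.57), -0.02 (6.78 to 6.76) and -0.40 (3.33 to 2.93), the last being dim. Its value was -0.36, past 1.25-fold, in the normalized table that the study deposited. *WIPI2*, which brings ATG16L1 to the membrane, was at -0.10 from probes that disagreed in sign, 13.25 to 13.29 on one (0.04) and 5.01 to 4.78 on the other (-0.23), and it was 0.00 with the normexp correction. *WIPI1*, a second reader, was at -0.03 with probes from -0.17 to 0.09.

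Cargo receptors join ubiquitin-tagged cargo to the ATG8 proteins. *SQSTM1*, the receptor also called sequestosome, had the widest disagreement among members whose probes were all measured on both arrays. It read 12.75 in HN and 12.96 in LN on 1 probe, a difference of 0.21, but 8.17 and 7.80 on the second (-0.36) and 7.25 and 6.96 on the third (-0.29). The mean was -0.15 ± 0.31 (SD, n = 3 probes), and the sign of this gene depended on which probe was read. *NBR1*, its relative, was at -0.15 with all 3 probes lower (7.01 to 6.70, 5.01 to 4.98 and 4.57 to 4.47), and *OPTN*, which also takes part in mitophagy, was at 0.11 on its only probe (11.12 to 11.23). The median of the 3 receptors was -0.15, and it was 0.11 when each gene was read from the probe with the highest signal.

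*TFEB*, which drives genes of lysosomes and autophagy when it is released from mTORC1 control, was at -0.11. Its probes read 12.30, 5.60 and 4.99 in HN and 12.35, 5.53 and 4.70 in LN, differences of 0.05, -0.07 and -0.29, so that 1 was slightly higher and 2 were lower.

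Probes of the same gene were of both signs in 10 of the 29 genes that had several probes measured on both arrays, *SQSTM1* included. The sequence of each probe is not used here, so which transcript each one reads is not stated. Reading each gene from the probe with the highest signal gave 21 genes below 0 and 14 above, compared with 26 and 9 for the mean over probes. In 14 of the 29 genes (48.3%) the probe with the highest signal had a higher log2 LN/HN than the probe with the lowest signal, against 53.0% of all 7139 such genes. Over the 11 ways of processing, 17 genes were below 0 in each, 7 were above 0 in each, and 11 had values of both signs. No gene was past 1.25-fold in all 11.

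**Figure D4:**
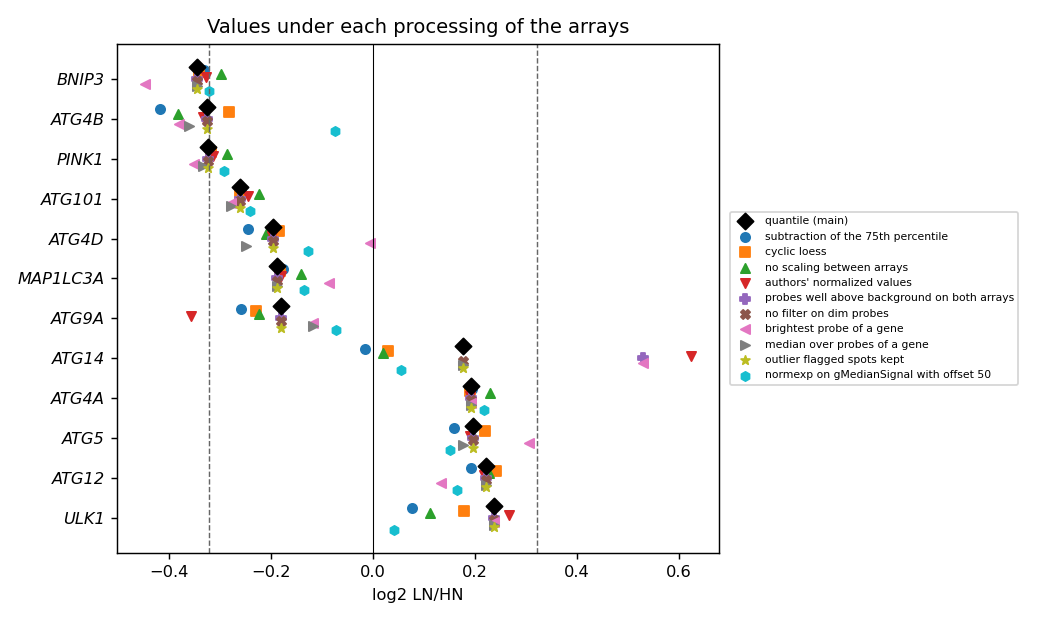
log2 LN/HN (x axis) of the 12 genes counted past the 95% range of a single spot (*ATG14* with a mean that is an upper limit), under the quantile normalization (black diamonds) and 10 alternatives (other symbols). Dashed lines mark 1.25-fold. *PINK1* stays between -0.35 and -0.29, *ATG4B* runs from -0.42 to -0.07, and *ATG14* runs from -0.02 to 0.62.

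A further 57 autophagy genes outside the 36 were read in the same way, and 47 of them gave a fold. Of these, 26 (55.3%) were lower and 21 (44.7%) were higher, with a median of -0.02. Past 1.25-fold, 1 was lower (2.13%, beside 9.11% of all genes) and 5 were higher (10.6%, beside 8.85%). The 5 became 3 with cyclic loess, 1 with subtraction of the 75th percentile, with no scaling or with the probe of highest signal, and 0 with normexp. The lower one was *CALCOCO1*, an ATG8-binding receptor for the endoplasmic reticulum and Golgi, with probes from 10.12 to 9.72 and from 7.94 to 7.45 and a value of -0.44.

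Those named among the 5 that were higher act at different steps. *ATG4C*, the remaining ATG4 protease, was at 0.36 with all 3 probes higher (7.81 to 8.00, 4.15 to 4.54 and 3.54 to 4.02), whereas *ATG4B* and *ATG4D* were lower. *TMEM41B*, a scramblase of the endoplasmic reticulum, was at 0.37 with probes at 0.14 (8.85 to 8.99) and 0.59 (2.64 to 3.22), the last being dim. *YKT6*, a SNARE of autophagosome fusion, was at 0.37 with all 3 probes higher but dim (4.83 to 5.01, 4.20 to 4.73 and 3.39 to 3.77). On the probe of highest signal, *ATG4C* (0.19), *TMEM41B* (0.14) and *YKT6* (0.18) were each short of 1.25-fold. *USP30*, a deubiquitinase of the outer mitochondrial membrane, was at least 0.88 on its only probe, which was not well above background in the HN pool. The genes of autophagosome fusion with the lysosome were lower in 8 of 11, with a median of -0.09, and those of mitophagy outside the 36 were higher in 8 of 13, with a median of 0.04, small lists to be read beside the 50.7% lower and 49.3% higher of all genes.

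The tissue was read as labelled. All 13 matched skeletal muscle markers were detected, with log2 signals of at least 11.25 in HN and 11.12 in LN, and 11 of the 13 were themselves lower in the LN pool, with a median of -0.15 (*TTN* and *TNNI2* had no matched probe). Markers of other cells moved as well: the 6 detected macrophage markers had a median of -0.32 (5 lower), the 6 endothelial markers -0.21 (5 lower), the 7 detected erythroid markers -0.16 (6 lower) and the 4 detected adipocyte markers 0.04 (2 lower). Of the 9 neutrophil markers 8 were higher, with a median of 0.98. The summed linear signal of each list went from 642269 to 586593 in muscle, 6152 to 4860 in macrophages, 5575 to 4415 in endothelium, 24326 to 23458 in erythroid cells, 479 to 585 in adipocytes and 2003 to 3853 in neutrophils. These sums add signals that are not on a common scale and follow the genes of highest signal. They are not amounts of each cell type. Matched defining markers without a fold included *SLC4A1*, *EPB42* and *LEP*. The part of these cell types in the values of the autophagy genes was not tested.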

How the data were processed

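Total RNA of fetal LT muscle was pooled from 4 fetuses per diet and read on 1 one-color Agilent bovine array per pool. The authors deposited, per the file headers, spot intensities from Agilent Feature Extraction 11.0.1.1, background-corrected but not scaled between arrays. The log2 values deposited by the authors had been quantile-normalized in GeneSpring GX, and their scale was judged from the values, since they followed the log2 intensities (Pearson's r across probes 0.9995 for HN and 0.9996 for LN). They cover 30027 probes.

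Here, log2 intensities of the 43803 non-control spots were quantile-normalized with limma 3.58.1 (R 4.3.3). After removal of 13 spots flagged as outliers (0 of members), repeat spots were averaged. No spot was saturated. On the HN array 74.5% of probes were well above background, and on the LN array 70.9%. A probe well above background on 1 array only had its dim side set to the lowest signal well above background there (log2 2.27 on HN, 2.82 on LN) or its own if higher, and its difference is then a limit. No fold was given where the bright side did not exceed that signal. A gene's value is the mean over its probes with a fold. Accessions of 26742 probes were matched to 12603 symbols with the ARS-UCD2.0 gene table. Coordinates are omitted because the array was designed on an earlier build.

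With 1 array per group the number of arrays limits the precision, and differences were described by size, at the 1.25-fold threshold that the study used for its pathway analysis, and by agreement between probes. The named genes are all 36 members, the other autophagy genes past 1.25-fold, and markers needed to check the tissue, some of which are not reported here. The members, lists and thresholds were chosen with earlier results of these data known. The steps were tested on simulated data with planted differences larger than that of any member, and genes resting on a limit were left out. That test therefore does not show how well differences as small as those described here are recovered. Tables were handled with Python 3.11.15, numpy 2.4.6 and pandas 2.3.3, and figures drawn with matplotlib 3.10.9. The 10 alternatives were other scalings (subtraction of the 75th percentile, cyclic loess, none), the table the authors normalized, other treatment of dim or flagged spots, other ways to combine probes, and normexp background correction with offset 50.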

Additional observations from a re-analysis of the deposited data

How the results depend on the processing

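The median of the 35 genes stayed below 0 under all 10 alternatives, from -0.11 to -0.041. Of 350 values of single genes under an alternative, 38 moved by more than the SD between spots of a probe (0.09), 15 of them when each gene was read from its probe with the highest signal. The number of members past 1.25-fold lower was 3, and 1 with cyclic loess (*BNIP3*), 1 with no scaling (*ATG4B*) and 1 with normexp (*BNIP3*), and 2 with subtraction of the 75th percentile. The number higher was 0, and 1 (*ATG14*) with the authors' values, with probes well above background on both arrays and with the probe of highest signal. The median of the receptors was -0.15, but 0.11 with the probe of highest signal and -0.050 with normexp. Of the other autophagy genes, 1 was lower, and 2 with subtraction of the 75th percentile. The 5 that were higher became 3 with cyclic loess, the authors' values or probes well above background on both arrays, 1 with subtraction of the 75th percentile, no scaling or the probe of highest signal, and 0 with normexp, no test being possible under any setting. Over all genes, 1781 were lower and 1731 higher past 1.25-fold, but 2693 and 1191 after subtraction of the 75th percentile, 2260 and 1462 with no scaling, and 391 and 319 with normexp. The cause of these differences was not tested.

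No paired analysis was possible because each group has 1 array. Matching of probes by a gene name column was not run, since the scanner files used here hold no such column. The normexp correction was run on the median spot signals, a choice made after seeing the data, as was the count over entries with a symbol alone. Signals near background limit *ULK1*, *ATG14* and *UVRAG* most.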
